A study of Mus musculus with 33 samples.

Results

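Of the 33 libraries in the series, 3 chosen by their labels are described here: 1 of mouse embryoid bodies that received activin A at 3 ng/mL (AA3) and 2 of untreated serum-free controls (SFM). Embryoid bodies are aggregates of differentiating embryonic stem cells. They were dispersed on day 2, and activin A was then present until RNA was taken on day 4. All groups shared serum-free culture and the DP-seq method, in which cDNA is amplified with a defined collection of heptamer primers. The labels of these libraries do not name the primer set. The stem cell line is not given in the sources used here. SFM replicate 1 was the reference, and SFM replicate 2, whose label adds spiked-in yeast transcripts, served as a check. The same set of libraries held 1 treated with SB-431542 (SB), 2 technical replicates from cells on 15 ng/mL activin A (AA15) and 1 from cells on 100 ng/mL (AA100), and these gave the spread and the place of AA3 among the doses.

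Activin A and Nodal are TGF-β family ligands that bind type II and type I activin receptors. The receptors phosphorylate Smad2 and Smad3, which enter the nucleus with Smad4 and act with DNA-binding partners such as Foxh1. The pathway induces its own ligand Nodal and its own inhibitors, Lefty1, Lefty2 and others. In the early mouse embryo it keeps the epiblast from turning into neuroectoderm, and graded signalling patterns the primitive streak, from which mesoderm and endoderm arise. SB-431542 blocks the type I receptors that serve activin, Nodal and TGF-β.

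SFM replicate 2 stood apart from the other libraries, which bears on every result below. It held 13053122 counts, against 15707808 in AA3 and 15395435 in SFM replicate 1. Gapdh, a glycolysis enzyme gene used as a reference, had 71863 counts in AA3, 57926 in SFM replicate 1 and 15 in SFM replicate 2. Over the 8495 genes averaging 50 counts or more, the log2 ratio had an SD of 0.561 between AA3 and SFM replicate 1, 1.94 between the SFM libraries and 0.349 within the AA15 pair. Of 7358 genes with at least 100 counts in SFM replicate 1, 680 stood at under an eighth of its level in SFM replicate 2, and 12 did so in AA3. The labels do not tell whether the controls were separate cultures. Levels are given as library-size-scaled counts (CPM, with TMM scaling), and each library's value is printed, since AA3 and each control are single libraries without a replicate error.

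The first comparison asked which genes differ between cells given the lowest activin dose and untreated cells. Of 12076 genes tested, 337 rose in AA3 over SFM replicate 1 (2.79%) and 300 fell (2.48%), at an adjusted p under 0.05 in edgeR's quasi-likelihood test. The spread came from the AA15 technical pair alone, with 1 residual degree of freedom. Each gene's spread was drawn towards a trend over all genes (median prior degrees of freedom 174.1), so it was hardly measured gene by gene. The calls therefore set single libraries against technical spread and not treated cultures against untreated ones. The rises had a median of 1.35 on the log2 scale and the falls a median of 1.58, and 55 rises and 98 falls passed 4-fold. The median change over all tested genes was −0.01. Of the rises, 260 (77.2%) were also higher in AA3 than in SFM replicate 2, and of the falls 194 (64.7%) were also lower. Over all tested genes AA3 was the higher in 53.5% and the lower in 46.4%. A second description, with no test, took genes at least 2-fold above or below both controls. Among 9101 genes with at least 50 counts in the highest of these libraries, 216 stood above both (2.37%) and 179 below both (1.97%).

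With both SFM libraries in 1 fit, edgeR called 0 genes in either direction, with 197 genes at unadjusted p under 0.05, and DESeq2 on the 6 libraries without SFM replicate 2 called 92 rises and 51 falls. Of 79 called genes named in the text, 39 lost their call in DESeq2, Nodal among them. In the fit with both controls 292 of the 337 rises and 297 of the 300 falls still had the same direction. That fit still holds AA3 and SFM replicate 1, which gave the calls, so the shared direction is partly built in and is no independent check. The words rose and fell below refer to the test against SFM replicate 1. In bulk samples, fewer cells of a type and less RNA per cell cannot be told apart.

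**Figure D1:**
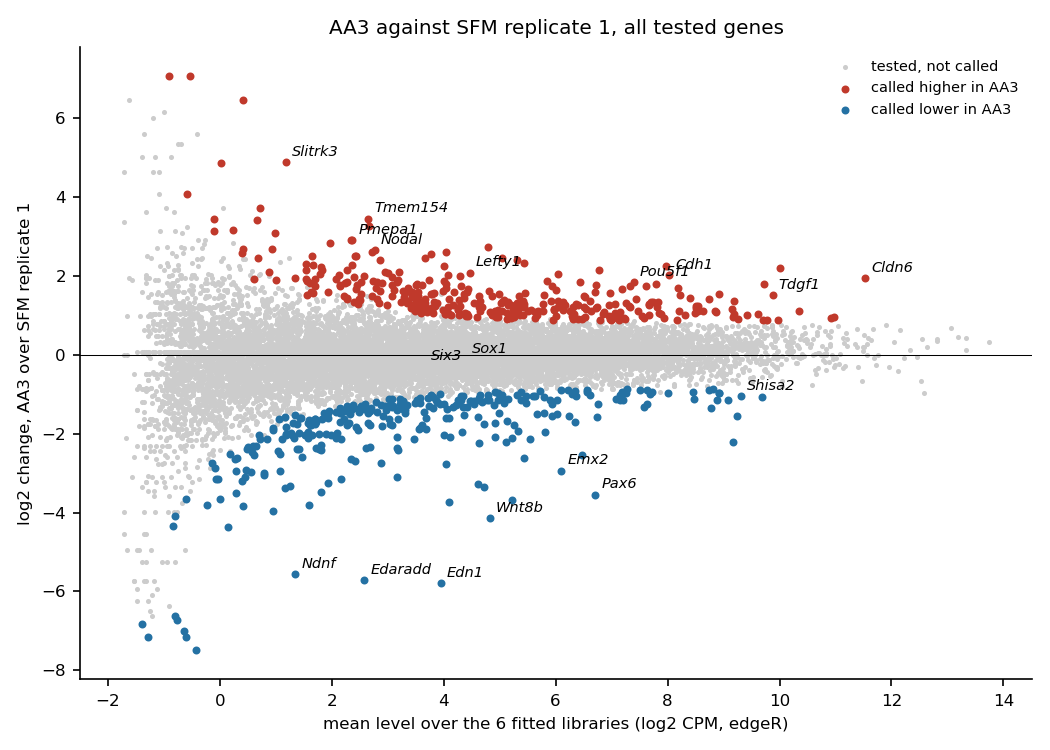
Each point is 1 of the 12076 tested genes, with the mean level over the 6 fitted libraries (log2 CPM) on the x axis and the log2 change of AA3 over SFM replicate 1 on the y axis. Red points are the 337 genes that rose, blue points the 300 that fell and grey points the rest. Edn1, Edaradd and Ndnf lie lowest among the labelled genes and Slitrk3 highest.

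Nodal and the feedback genes of its pathway were higher with activin. Nodal had 84 counts in AA3 (95% exact Poisson interval 67.0 to 104), against 14 in SFM replicate 1 (7.65 to 23.5) and 2 in SFM replicate 2. Its level was 5.26 CPM in AA3, 0.82 in SFM replicate 1 and 0.193 in SFM replicate 2. The rise was 2.66 ± 0.51 on the log2 scale (± standard error worked back from the edgeR test, adjusted p = 8.85e-05). The Poisson intervals describe counting error alone, because reads from amplified cDNA are not separate molecules. AA3 lay above both controls, whose counts were low, and DESeq2 did not call Nodal.

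Among the ligands and co-receptors, 3 of 9 tested members rose and none fell, against 2.79% and 2.48% of all tested genes. The list's median was −0.36, so most members did not share the direction of those called. Tdgf1, which encodes the Nodal co-receptor Cripto, reached 597 CPM in AA3, against 206 in SFM replicate 1 and 222 in SFM replicate 2 (1.52 ± 0.29, adjusted p = 4.52e-05). It was 2.90-fold and 2.68-fold above the controls, which lay close together. Inhba, the gene of the activin A subunit itself, stood at 10.8 CPM in AA3, 3.05 in SFM replicate 1 and 7.42 in SFM replicate 2. Its rise of 1.81 ± 0.40 (adjusted p = 0.000671) was only 1.46-fold against SFM replicate 2. Cfc1, which encodes Cryptic, the other EGF-CFC co-receptor, did not pass the test, with 4.88 CPM in AA3, 3.87 in SFM replicate 1 and 0.0964 in SFM replicate 2.

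The receptors and Smads differed from their partner Foxh1. Foxh1 was the 1 of 8 tested members of that list to rise, with none lower, against 2.79% and 2.48% of all tested genes. The list median was −0.27. Foxh1, the forkhead factor that brings activated Smads to DNA, stood at 15.0 CPM in AA3, 5.86 in SFM replicate 1 and 2.51 in SFM replicate 2 (1.34 ± 0.35, adjusted p = 0.00628). Acvr2a, a type II activin receptor gene, had 28.9 CPM in AA3, 48.1 in SFM replicate 1 and 54.7 in SFM replicate 2 and did not pass (adjusted p = 0.143). Smad2 stood at 184 CPM in AA3, 219 in SFM replicate 1 and 160 in SFM replicate 2, so AA3 lay between the controls. Acvr1c, Tgfbr2 and Trim33 had 0 counts in AA3 and in SFM replicate 1. DP-seq reaches only transcripts its primers amplify, and whether these genes were expressed was not tested.

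Feedback inhibitors and direct targets held 6 rises and no fall among 12 tested members, against 2.79% and 2.48% of all tested genes. The list median was 0.99. Pmepa1, a membrane protein gene that limits Smad activation, had 86 counts (5.38 CPM) in AA3, against 12 counts (0.703 CPM) in SFM replicate 1 and 3 counts (0.289 CPM) in SFM replicate 2. This was the largest rise of the list, at 2.91 ± 0.52 (adjusted p = 1.32e-05). Lefty1, a secreted Nodal antagonist, reached 10.1 CPM in AA3, against 2.34 in SFM replicate 1 and 0.482 in SFM replicate 2 (2.09 ± 0.38, adjusted p = 2.19e-05), and had 0 counts in SB. Fst encodes follistatin, which binds and neutralises activin. It stood at 7.76 CPM in AA3, 1.82 in SFM replicate 1 and 1.54 in SFM replicate 2 (2.08 ± 0.42, adjusted p = 0.000208), with AA3 over 4-fold above both. Smad7, an inhibitory Smad, had 13.0 CPM in AA3, 5.62 in SFM replicate 1 and 2.12 in SFM replicate 2.

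Lefty2 was higher in AA3 than in only 1 of the controls, and Cer1 was higher than in both. Lefty2, the paralogue of Lefty1, was called against SFM replicate 1 (1.32 ± 0.34, adjusted p = 0.00632), with 11.8 CPM in AA3 and 4.69 in that control, but SFM replicate 2 stood higher than AA3 at 19.2 CPM. Cer1, a secreted antagonist of Nodal, BMP and Wnt, had 78.7 CPM in AA3, against 30.6 in SFM replicate 1 and 47.3 in SFM replicate 2 (1.35 ± 0.29, adjusted p = 0.000553). Lefty1 and Lefty2 are alike in sequence, and how reads shared by such copies were counted is not known.

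**Figure D2:**
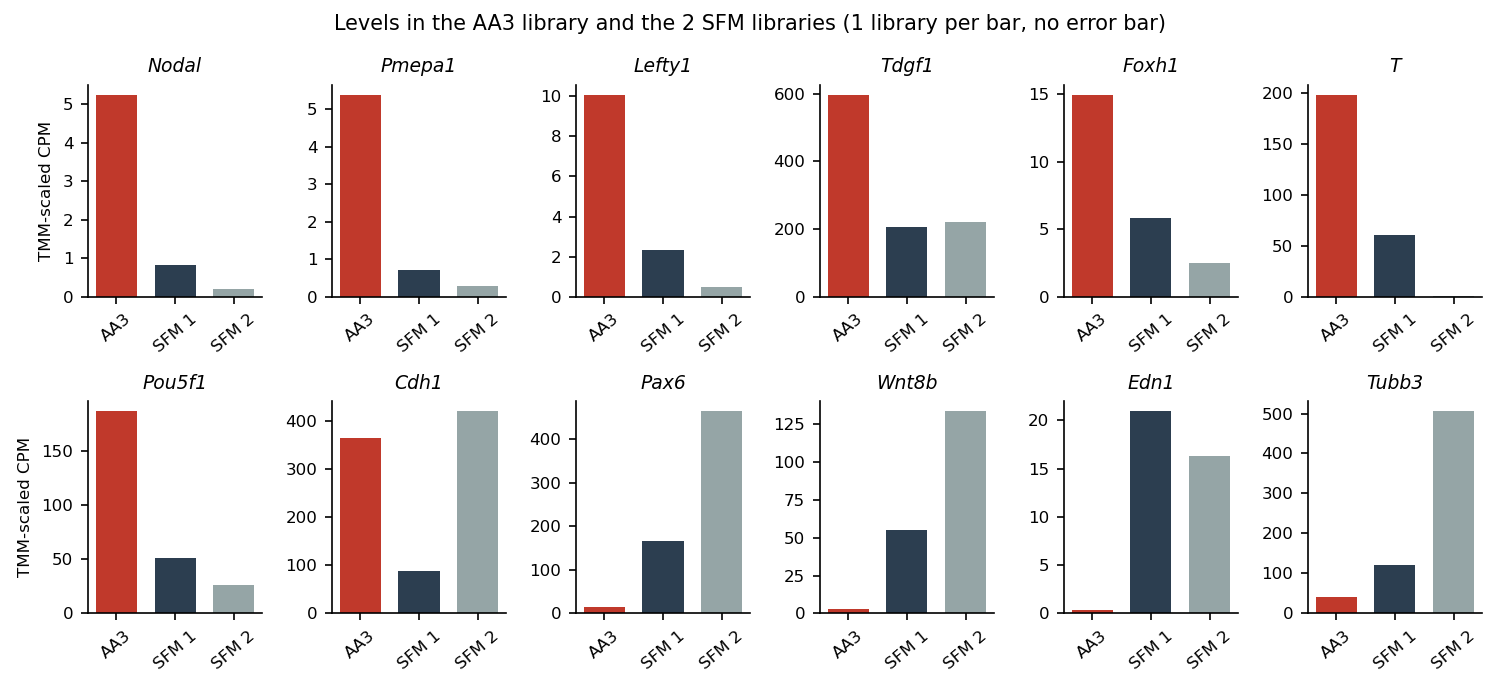
Bars give the TMM-scaled CPM of 12 genes in AA3 (red), SFM replicate 1 (dark) and SFM replicate 2 (grey), 1 library per bar, each panel with its own axis from 0. Nodal, Pmepa1, Lefty1, Tdgf1, Foxh1, T and Pou5f1 are highest in AA3, and Pax6, Wnt8b, Edn1 and Tubb3 are lowest there. Cdh1 is higher in SFM replicate 2 (421 CPM) than in AA3 (364 CPM).

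Promoter sequence from the RefSeq table was kept for 9 of the 17 genes of the Nodal and streak lists that rose. A length filter and a chromosome filter were applied to this set. Those of Tdgf1 and Cer1 are shown as examples. Both genes rose and both sequences hold CAGAC, a short motif that Smad proteins bind. Evx1, Lhx1 and Wnt3 also rose and hold CAGAC, and their sequences are not shown. All promoters run from 250 bases before to 50 after the start site (RefSeq, GRCm38.p6). Capitals mark CAGAC and the Foxh1 core AATNNACA, where N is any base, and both strands were searched.
Tdgf1, chr9:110946109-110946408, minus strand: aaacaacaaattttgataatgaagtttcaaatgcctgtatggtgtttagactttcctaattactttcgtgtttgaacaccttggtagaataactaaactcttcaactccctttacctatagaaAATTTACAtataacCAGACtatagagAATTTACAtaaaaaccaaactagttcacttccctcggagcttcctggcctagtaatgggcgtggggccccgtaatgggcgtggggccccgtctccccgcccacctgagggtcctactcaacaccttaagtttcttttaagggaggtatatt
Cer1, chr4:82885102-82885401, minus strand: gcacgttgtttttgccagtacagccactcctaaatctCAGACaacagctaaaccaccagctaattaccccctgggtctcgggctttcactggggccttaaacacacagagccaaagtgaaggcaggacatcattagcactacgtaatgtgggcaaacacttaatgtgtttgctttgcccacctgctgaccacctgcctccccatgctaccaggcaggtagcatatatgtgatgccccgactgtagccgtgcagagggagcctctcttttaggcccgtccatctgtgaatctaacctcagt
In Tdgf1 the Foxh1 core begins at −127 and again at −101 from the start site, and CAGAC lies between them at −113. In Cer1 CAGAC begins at −213, and no Foxh1 core was found. CAGAC occurred in 5 of the 9 promoters, against 49.6% of 32851 mouse promoters of the same length, and the Foxh1 core in 1 of 9, against 12.2%. These 32851 promoters had no chromosome filter, so the sets were not filtered alike. A match is a run of letters and not a measured site.

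Primitive streak genes were among the rises. Of 15 tested members 7 rose and none fell, against 2.79% and 2.48% of all tested genes, and the list median was 1.19. Of 7 with at least 50 counts, 5 stood at least 2-fold above both controls, against 2.37% of all such genes. T encodes Brachyury, the T-box factor of the streak and nascent mesoderm. It reached 199 CPM in AA3, against 61.1 in SFM replicate 1 and 0.964 in SFM replicate 2 (1.69 ± 0.30, adjusted p = 2.31e-05). The controls thus differed from each other far more than AA3 did from SFM replicate 1. Mixl1, a homeobox gene of the streak, stood at 18.1 CPM in AA3, 4.86 in SFM replicate 1 and 3.37 in SFM replicate 2 (1.89 ± 0.33, adjusted p = 7.77e-06). Lhx1, a LIM homeobox gene, had 18.8 CPM in AA3, 8.14 in SFM replicate 1 and 7.23 in SFM replicate 2. For both genes the controls lay close together and below AA3.

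Gsc, the organizer homeobox gene Goosecoid, stood at 5.13 CPM in AA3, 1.70 in SFM replicate 1 and 0.0964 in SFM replicate 2 (1.58 ± 0.43, adjusted p = 0.0108). Evx1, an even-skipped homeobox gene of posterior streak cells, rose by 1.74 ± 0.31 but was only 1.87-fold above SFM replicate 2. Wnt3 and Wnt8a encode Wnt ligands of the posterior epiblast and streak. Wnt8a had 54 counts in AA3, 10 in SFM replicate 1 and 6 in SFM replicate 2 (2.50 ± 0.56, adjusted p = 0.000886). Wnt3 had 47 counts in AA3 and 5 in SFM replicate 1, a rise of 3.28 ± 0.63, but 24 in SFM replicate 2, which is 1.27-fold below AA3. Eomes, a T-box gene needed for endoderm and mesoderm, had only 0.501 CPM in AA3, 0.293 in SFM replicate 1 and 0.193 in SFM replicate 2 and did not pass.

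Genes of the streak's derivatives gave fewer calls. Of 17 tested genes of definitive and anterior endoderm 4 rose and 2 fell, against 2.79% and 2.48% of all tested genes. The list median was 0.85, and the members that rose were Cer1, Trh, Cldn6 and Epcam. Cldn6, an epithelial claudin, and Epcam, an epithelial adhesion molecule, are not endoderm-restricted, and Trh encodes thyrotropin-releasing hormone. Foxa2 and Sox17, transcription factor genes of endoderm, did not pass: Foxa2 had 12.4 CPM in AA3, 6.32 in SFM replicate 1 and 1.16 in SFM replicate 2 (adjusted p = 0.0858), and Sox17 had 21, 11 and 1 counts in the same libraries. Cxcr4, a chemokine receptor gene of definitive endoderm that neural cells express too, fell by 1.79 ± 0.32 on the log2 scale (adjusted p = 2.15e-05). It stood at 11.8 CPM in AA3 and 40.5 in SFM replicate 1 but at 5.59 in SFM replicate 2, so AA3 lay between the controls. Frzb, a secreted Wnt antagonist, fell by 0.90 ± 0.29 (adjusted p = 0.0393).

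In the mesoderm list no gene rose and 1 of 10 tested fell, against 2.79% and 2.48% of all tested genes. The list median was 0.26. Kdr, a VEGF receptor gene, had 11.4 CPM in AA3, 6.15 in SFM replicate 1 and 9.93 in SFM replicate 2, and Hand1, a lateral mesoderm factor, had 19, 9 and 8 counts. Neither passed. The gene that fell was Aldh1a2, which makes retinoic acid, with 2 counts in AA3 and 46 in SFM replicate 1, yet 2 in SFM replicate 2. Blood and endothelium (5 tested, all with a positive change, median 0.88) and trophoblast (4 tested, median −0.29) had no call.

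**Figure D3:**
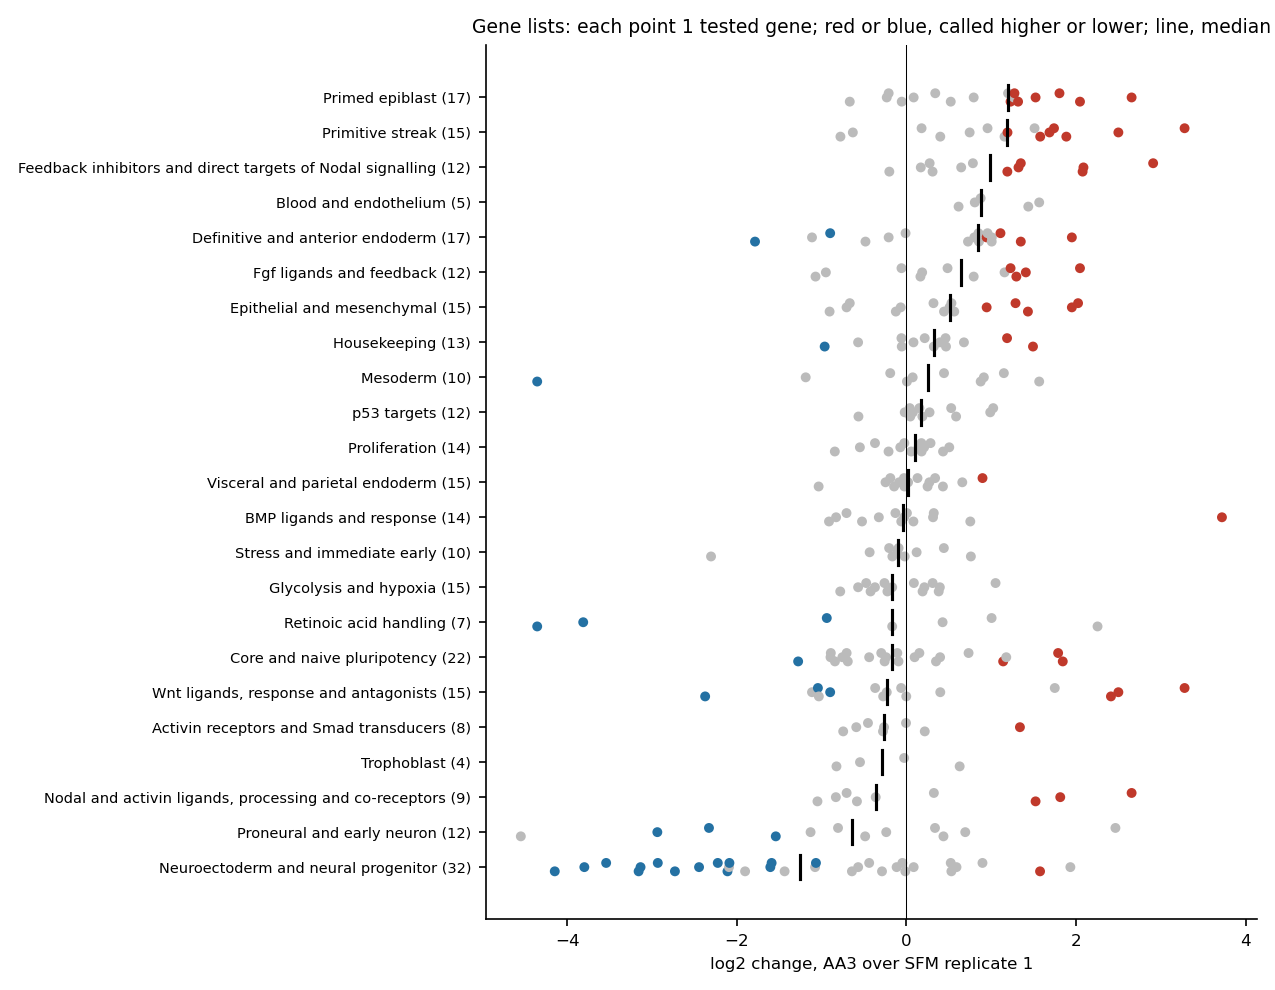
Each point is 1 tested gene and the x axis is its log2 change in AA3 over SFM replicate 1. Rows are the 23 gene lists with the number tested in brackets, ordered by their median (black line). Red points rose and blue points fell. The primed epiblast, primitive streak and feedback lists have medians of 1.20, 1.19 and 0.99, and the neuroectoderm list has the lowest, at −1.26.

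Neuroectoderm, the longest list, gave the most falls by count. Of 32 tested genes 14 fell and 1 rose, against 2.48% and 2.79% of all tested genes, and the median was −1.26. Of 26 with at least 50 counts, 10 stood at least 2-fold below both controls, against 1.97% of all such genes. The lists were chosen with earlier results of these data known. Pax6, a paired-box factor of neural progenitors and the eye, had 14.4 CPM in AA3, against 166 in SFM replicate 1 and 465 in SFM replicate 2. It fell by 3.54 ± 0.32 on the log2 scale (adjusted p = 7.78e-19) and was 11.6-fold and 32.3-fold below the controls. Wnt8b, a Wnt ligand of the dorsal forebrain, stood at 3.13 CPM in AA3, 55.2 in SFM replicate 1 and 133 in SFM replicate 2 (−4.15 ± 0.36, adjusted p = 3.99e-19). Emx2, a homeobox gene of the dorsal telencephalon, had 18.2 CPM in AA3, 138 in SFM replicate 1 and 333 in SFM replicate 2 (−2.93 ± 0.31). All 3 lay well below both controls.

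Several other forebrain genes followed them. Fezf1, a zinc finger gene of the forebrain, had 17 counts in AA3, 162 in SFM replicate 1 and 189 in SFM replicate 2 (−3.16 ± 0.48, adjusted p = 1.74e-07). Lhx2, a LIM homeobox gene of eye field and cortex, had 11.1 CPM in AA3, 33.1 in SFM replicate 1 and 83.2 in SFM replicate 2 (−1.59 ± 0.33, adjusted p = 0.000283). Fezf2, the paralogue of Fezf1, fell by 2.09 ± 0.32 against SFM replicate 1, with 12.6 CPM in AA3 and 53.1 there, but stood at 5.01 CPM in SFM replicate 2. Hes5, a Notch target of neural progenitors, showed the same split, with 20 counts in AA3, 92 in SFM replicate 1 and 7 in SFM replicate 2.

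The falls were not limited to forebrain genes. En1, a midbrain and hindbrain homeobox gene, stood at 15.0 CPM in AA3, 31.2 in SFM replicate 1 and 24.6 in SFM replicate 2 (−1.07 ± 0.32, adjusted p = 0.0269). Pax3, of the dorsal neural tube and neural crest, had 16 counts in AA3, 93 in SFM replicate 1 and 57 in SFM replicate 2 (−2.45 ± 0.55, adjusted p = 0.000969). Ptn, the growth factor gene pleiotrophin, fell by 2.23 ± 0.32. Hes3, Rax and Pax2 fell as well, with 3, 3 and 7 counts in AA3, 46, 29 and 50 in SFM replicate 1 and 12, 6 and 2 in SFM replicate 2.

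The other 17 tested genes of the list gave no call, and their levels differed. Lhx5, a LIM homeobox gene of the anterior neural plate, had 17 counts in AA3, 49 in SFM replicate 1 and 69 in SFM replicate 2 (−1.44 ± 0.58). Pou3f3, a POU factor gene of the nervous system, had 10 counts in AA3, 40 in SFM replicate 1 and 115 in SFM replicate 2 (−1.90 ± 0.67), and Gbx2, a hindbrain homeobox gene, had 29, 65 and 119 (−1.08 ± 0.48). These 3 stood at least 2-fold below both controls without passing the test. Sox1, an early marker of neuroectoderm, had 28.3 CPM in AA3, 30.5 in SFM replicate 1 and 20.1 in SFM replicate 2 (−0.12 ± 0.31, adjusted p = 0.911). Six3, a homeobox gene of the anterior neural plate, had 21.1 CPM in AA3, 25.5 in SFM replicate 1 and 13.9 in SFM replicate 2 (−0.29 ± 0.32, adjusted p = 0.739). Sox2, shared by pluripotent and neural cells, had 41.7 CPM in AA3, 56.0 in SFM replicate 1 and 38.8 in SFM replicate 2 (adjusted p = 0.496). For Sox1, Six3 and Sox2 AA3 lay between the controls, and a miss of the threshold does not show equality. The one rise was Zic5, a zinc finger gene of the neural plate, with 65 counts in AA3, 23 in SFM replicate 1 and 13 in SFM replicate 2 (1.58 ± 0.51, adjusted p = 0.0496).

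Among proneural and early neuron genes 3 of 12 tested fell and none rose, against 2.48% and 2.79% of all tested genes. The list median was −0.65, or −0.36 with the 1 gene at 0 counts set at its bound. Tubb3, the neuronal β-tubulin gene, had 41.7 CPM in AA3, 120 in SFM replicate 1 and 506 in SFM replicate 2 (−1.54 ± 0.29, adjusted p = 4.52e-05). Neurog2, a proneural factor gene, had 9 counts in AA3, 74 in SFM replicate 1 and 59 in SFM replicate 2 (−2.94 ± 0.61, adjusted p = 0.000267). Dll1, a Notch ligand gene, fell by 2.33 ± 0.44, with 26 counts in AA3, 139 in SFM replicate 1 and 77 in SFM replicate 2. All 3 were at least 2-fold below both controls. Of the 12 tested, 4 had a positive change without a call. The largest was that of Isl1, with 11 counts in AA3 and 2 in each control (2.47 ± 1.31, adjusted p = 0.340).

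Retinoic acid genes gave 3 falls and no rise among 7 tested, with a median of −0.17, against 2.48% and 2.79% of all tested genes. Dhrs3, Cyp26a1 and Rarb had a positive change without a call. Dhrs3 had 1.44 CPM in AA3, 0.293 in SFM replicate 1 and 1.73 in SFM replicate 2 (2.25 ± 0.82, adjusted p = 0.0964). Cyp26a1 had 4.63 CPM in AA3, 2.28 in SFM replicate 1 and 13.0 in SFM replicate 2 (1.00 ± 0.43). Crabp1, a retinoic acid binding protein gene, had 7 counts in AA3, 106 in SFM replicate 1 and 47 in SFM replicate 2 (−3.81 ± 0.59, adjusted p = 2.63e-07). Crabp2 fell by only 0.94 ± 0.28 and stood at 87.3 CPM in AA3, 166 in SFM replicate 1 and 10.6 in SFM replicate 2, so the controls disagreed on its direction.

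Pou5f1 and L1td1 were higher with activin, and most other pluripotency genes gave no call. Pou5f1, which encodes Oct4 and is expressed in naive and primed cells, had 187 CPM in AA3, against 51.5 in SFM replicate 1 and 25.8 in SFM replicate 2. It rose by 1.84 ± 0.29 (adjusted p = 5.26e-07). L1td1, an RNA-binding protein gene of pluripotent cells, had 274 CPM in AA3, 78.6 in SFM replicate 1 and 43.3 in SFM replicate 2 (1.79 ± 0.29, adjusted p = 9.76e-07). Both lay over 3-fold above each control. Nanog rose by 1.14 ± 0.31 against SFM replicate 1 (31.5 CPM in AA3 and 14.2 in that control), while SFM replicate 2 stood at 26.8 CPM. Zfp42, the naive marker Rex1, fell by 1.28 ± 0.36, with 6.70 CPM in AA3 and 16.1 in SFM replicate 1, and 5.78 in SFM replicate 2. Over the core and naive list 3 of 22 tested genes rose and 1 fell, against 2.79% and 2.48% of all tested genes. The list median was −0.17.

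Primed epiblast genes gave 7 rises and no fall among 17 tested, against 2.79% and 2.48% of all tested genes. The list median was 1.20. Nodal and Tdgf1 are in this list too. Fgf5, the ligand gene that marks the post-implantation epiblast, had 73.5 CPM in AA3, 17.6 in SFM replicate 1 and 15.4 in SFM replicate 2 (2.05 ± 0.30, adjusted p = 5.52e-08). Slc7a3, a cationic amino acid transporter gene, rose by 1.27 ± 0.29, with 300.5 CPM in AA3, 123 in SFM replicate 1 and 94.1 in SFM replicate 2. Both were above both controls, which lay close together. Pim2, a kinase gene, rose by 1.80 ± 0.29 against SFM replicate 1 but stood at 1027 CPM in AA3 and 1190 in SFM replicate 2. Otx2, which marks the primed epiblast and later the forebrain, did not pass, with 697 CPM in AA3 and 799 in SFM replicate 1, and had 63.7 CPM in SFM replicate 2.

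Of the other signalling lists, Fgf gave 4 rises and no fall among 12 tested, against 2.79% and 2.48% of all tested genes. The Fgf median was 0.64. Beside Fgf5 the Fgf rises were Spry4 and Dusp6, feedback inhibitors of Erk signalling, and Etv4, an Erk-responsive Ets factor gene. Dusp6 stood at 114 CPM in AA3, 42.5 in SFM replicate 1 and 42.8 in SFM replicate 2 (1.41 ± 0.29, adjusted p = 0.00022). The Wnt list gave 3 rises and 3 falls among 15 tested, with a median of −0.23. Its falls included Shisa2, an antagonist of Wnt and Fgf receptors, with 678 CPM in AA3, 1387.5 in SFM replicate 1 and 2951.5 in SFM replicate 2 (−1.05 ± 0.29, adjusted p = 0.0168), and Wnt5b, with 11, 61 and 42 counts. Rspo3, a Wnt agonist gene, rose by 2.41 ± 0.33 over SFM replicate 1 and stood at 29.0 CPM in AA3 and 55.9 in SFM replicate 2. In the BMP list Bmp2 alone rose, of 14 tested, on 14 counts in AA3, 1 in SFM replicate 1 and 3 in SFM replicate 2.

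Epithelial genes were among the rises, and no mesenchymal gene was called. Of 15 tested 5 rose and none fell, against 2.79% and 2.48% of all tested genes, and the list median was 0.51. Cldn6 was the most abundant, at 3643 CPM in AA3, 934 in SFM replicate 1 and 1872 in SFM replicate 2 (1.95 ± 0.29, adjusted p = 7.45e-08). Esrp1, an epithelial splicing regulator gene, had 180 CPM in AA3, 73.3 in SFM replicate 1 and 37.2 in SFM replicate 2 (1.29 ± 0.29, adjusted p = 0.000852). Cdh1, which encodes E-cadherin, rose by 2.02 ± 0.29 against SFM replicate 1, from which AA3 differed 4.10-fold, but SFM replicate 2 was higher than AA3. Krt18, a simple-epithelial keratin gene, had 377 CPM in AA3, 138 in SFM replicate 1 and 2.70 in SFM replicate 2. Cdh2, which encodes N-cadherin, had 121 CPM in AA3, 191 in SFM replicate 1 and 346 in SFM replicate 2 (adjusted p = 0.179), and Zeb1, a mesenchymal repressor gene, had 9.39 CPM in AA3, 17.5 in SFM replicate 1 and 7.61 in SFM replicate 2 (adjusted p = 0.0995).

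Markers of other cells and of cell state gave few calls, but housekeeping genes gave more. Visceral and parietal endoderm gave 1 rise, Ttr (transthyretin), and no fall among 15 tested, and its summed level was 2333 CPM in AA3, 2199 in SFM replicate 1 and 2734.5 in SFM replicate 2. There was no call among 10 stress and immediate early genes, 12 p53 targets, 14 proliferation genes and 15 glycolysis genes. Of the p53 targets 10 had a positive change (median 0.17). Of 9 with at least 50 counts, 2 stood at least 2-fold above both controls, against 2.37% of all such genes. The 2 were Pmaip1 and Perp. Pmaip1 had 146 counts in AA3, 76 in SFM replicate 1 and 36 in SFM replicate 2, and Perp had 135, 72 and 30. Both are cell death genes. Among 13 tested housekeeping genes Hprt and B2m rose and Tfrc fell, while 2.79% of all tested genes rose and 2.48% fell. Hprt stood at 408 CPM in AA3, 178 in SFM replicate 1 and 122 in SFM replicate 2 (1.19 ± 0.28, adjusted p = 0.00242). B2m, the β2-microglobulin gene, had 109 CPM in AA3, 38.5 in SFM replicate 1 and 7.90 in SFM replicate 2 (1.49 ± 0.29, adjusted p = 7.99e-05). Ribosomal protein genes took 8.78% of counts in AA3, 8.53% in SFM replicate 1 and 5.07% in SFM replicate 2. What part these differences have in the results was not tested.

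**Figure D4:**
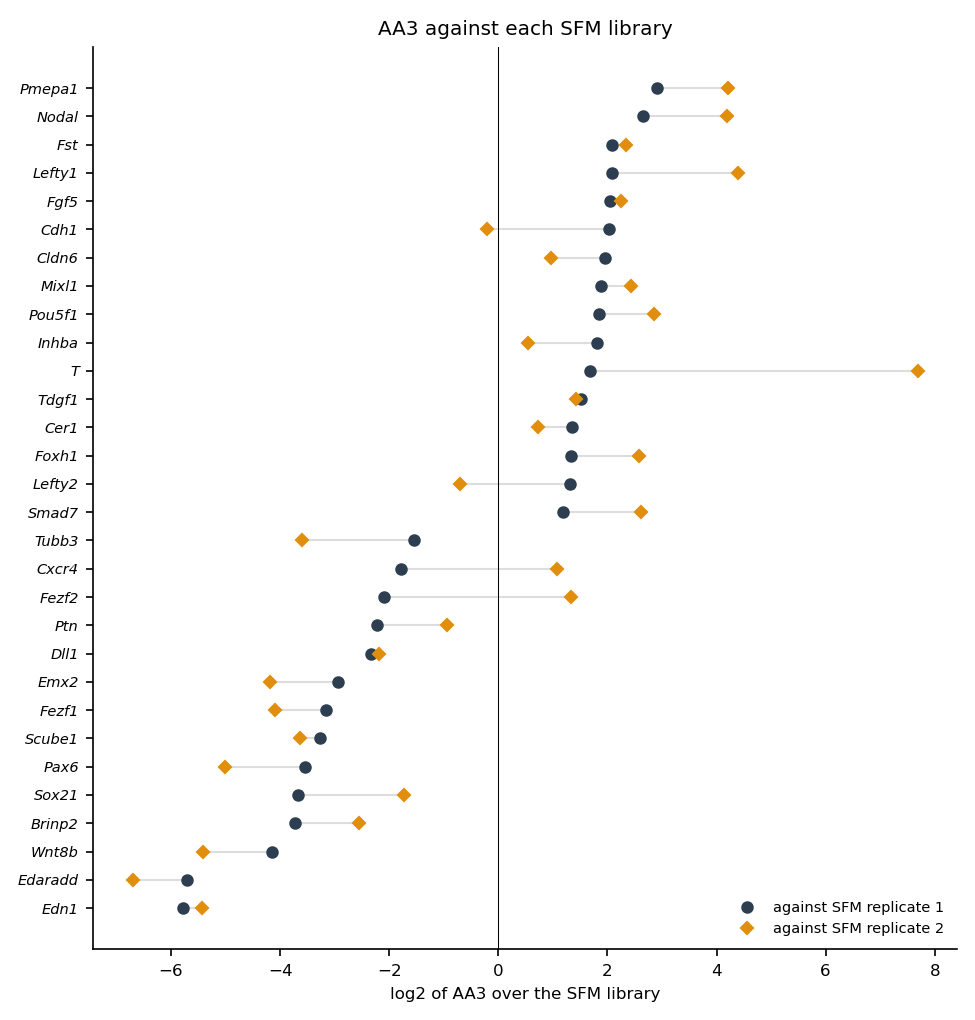
For 30 genes, the x axis gives the log2 of AA3 over SFM replicate 1 (circles, fitted change) and over SFM replicate 2 (diamonds, CPM ratio with counts under 3 set at 3). The genes are a selection, and most of them lie on the same side of 0 against both controls. Cdh1, Lefty2, Cxcr4 and Fezf2 change sides. Over all calls, 77 of 337 rises were lower in AA3 than in SFM replicate 2, and 105 of 300 falls were higher.

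Of the called genes with at least 50 counts and the same direction against both controls, leaving out models, pseudogenes and ribosomal protein genes, the largest changes were falls. Edn1, which encodes the vasoconstrictor peptide endothelin-1, had 6 counts in AA3 (2.20 to 13.1), 358 in SFM replicate 1 and 169 in SFM replicate 2. It fell by 5.79 ± 0.50 on the log2 scale (adjusted p = 3.13e-19). Edaradd, the adaptor of the ectodysplasin receptor, had 4 counts in AA3, 229 in SFM replicate 1 and 271 in SFM replicate 2 (−5.71 ± 0.58, adjusted p = 4.22e-15). Ndnf, a secreted neurotrophic factor gene, had 1 count in AA3, 56 in SFM replicate 1 and 17 in SFM replicate 2 (−5.56 ± 0.89, adjusted p = 8.82e-07). AA3 had fewer counts than either control for all 3, and the count of Ndnf in SFM replicate 2 was low as well.

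Neural genes were also among the largest falls. Sox21, a SoxB2 factor gene of neural progenitors, had 67 counts in AA3, 906 in SFM replicate 1 and 145 in SFM replicate 2 (−3.67 ± 0.35, adjusted p = 5.06e-17). Brinp2, a nervous system gene, had 2.57 CPM in AA3, 33.7 in SFM replicate 1 and 15.1 in SFM replicate 2 (−3.72 ± 0.38, adjusted p = 2.97e-15). Scube1, a secreted and membrane-bound glycoprotein gene, had 5.63 CPM in AA3, 53.7 in SFM replicate 1 and 70.3 in SFM replicate 2 (−3.26 ± 0.34). Wnt1, a midbrain and dorsal neural tube ligand gene, had 7 counts in AA3, 78 in SFM replicate 1 and 14 in SFM replicate 2.

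The largest rises had lower counts. Slitrk3, a neuronal synaptic adhesion gene, had 60 counts in AA3, 2 in SFM replicate 1 and 1 in SFM replicate 2 (4.90 ± 0.79, adjusted p = 1.02e-06). Tmem154, a transmembrane protein gene, had 157 counts in AA3, 15 in SFM replicate 1 and 12 in SFM replicate 2 (3.46 ± 0.47, adjusted p = 5.89e-09). Npy1r, a neuropeptide Y receptor gene, had 137 counts in AA3, 19 in SFM replicate 1 and 15 in SFM replicate 2 (2.92 ± 0.47). For these 3 the controls were close to each other. Tnnc1, whose rise of 3.43 ± 0.72 lay between those of Tmem154 and Npy1r, had controls further apart. It had 52 counts in AA3, 5 in SFM replicate 1 and 17 in SFM replicate 2. Galnt3 and Marveld3 were better counted. Galnt3, a mucin-type glycosyltransferase gene, had 32.9 CPM in AA3, 4.86 in SFM replicate 1 and 14.5 in SFM replicate 2 (2.74 ± 0.34), and Marveld3, a tight junction gene, had 37.4 CPM in AA3, 6.68 in SFM replicate 1 and 8.96 in SFM replicate 2 (2.47 ± 0.33, adjusted p = 1.74e-09).

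The second comparison placed AA3 against the next dose. In the same fit 124 of 12076 genes were higher in AA3 than in AA15 (1.03%) and 240 were lower (1.99%), again against technical spread. This comparison shares the AA3 library with the first, so an extreme value in AA3 moves both, and the values are given side by side only.

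Genes that rose at 3 ng/mL differed in how they compared with 15 ng/mL. Of the 15 tested streak genes 7 were lower in AA3 than in AA15 and none higher, against 1.99% and 1.03% of all tested genes. Mixl1 stood at 4.86 CPM in SFM replicate 1, 18.1 in AA3, 83.4 in AA15 (mean of 2 technical replicates) and 140 in AA100, and AA3 was below AA15 by 2.22 ± 0.28 on the log2 scale (adjusted p = 6.16e-10). Lefty1 was 1.66 ± 0.30 lower in AA3 than in AA15 (adjusted p = 4.03e-05), and its levels were 2.34, 10.1, 31.4 and 51.8 CPM in that order of dose. Tdgf1, at 597 CPM in AA3 and 1319 in AA15, and Cer1, at 78.7 in AA3 and 202 in AA15, were also lower in AA3. For these genes AA3 lay between the control and the higher doses.

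Others showed no called difference between the 2 doses. Pmepa1 had 5.38 CPM in AA3 and 6.27 in AA15 (−0.24 ± 0.35, adjusted p = 0.861). Fgf5 had 73.5 CPM in AA3 and 96.6 in AA15 (−0.41 ± 0.25, adjusted p = 0.499). Cdh1, Cldn6 and Slc7a3 differed by 0.11 ± 0.24, −0.11 ± 0.24 and 0.03 ± 0.24. Pou5f1 had 187 CPM in AA3 and 249 in AA15 (−0.43 ± 0.25, adjusted p = 0.455), and Nodal itself had 5.26 CPM in AA3 and 11.3 in AA15 (−1.12 ± 0.35, adjusted p = 0.0539). A missed threshold does not show equal levels, and for each of these genes AA3 was higher than SFM replicate 1.

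Neural genes showed the same spread in the other direction. Of the 32 tested neuroectoderm genes, 12 were higher in AA3 than in AA15 and none lower, against 1.03% and 1.99% of all tested genes. Six3, which did not pass against SFM replicate 1, was higher in AA3 than in AA15 by 3.25 ± 0.31 (21.1 CPM in AA3 and 2.18 in AA15, adjusted p = 1.78e-16), and Sox1 was higher by 1.11 ± 0.27 (28.3 CPM in AA3 and 13.0 in AA15, adjusted p = 0.00508). Pax6 and Lhx2 lay between, with Pax6 at 166 CPM in SFM replicate 1, 14.4 in AA3, 4.42 in AA15 and 1.58 in AA100. Edn1, Brinp2 and Scube1 gave no call between AA3 and AA15, with Scube1 at 5.63 CPM in AA3 and 4.59 in AA15 (0.27 ± 0.31, adjusted p = 0.802). Shisa2 fell in AA3 and was still 2.09 ± 0.24 higher there than in AA15 (678 CPM in AA3 and 158 in AA15).

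**Figure D5:**
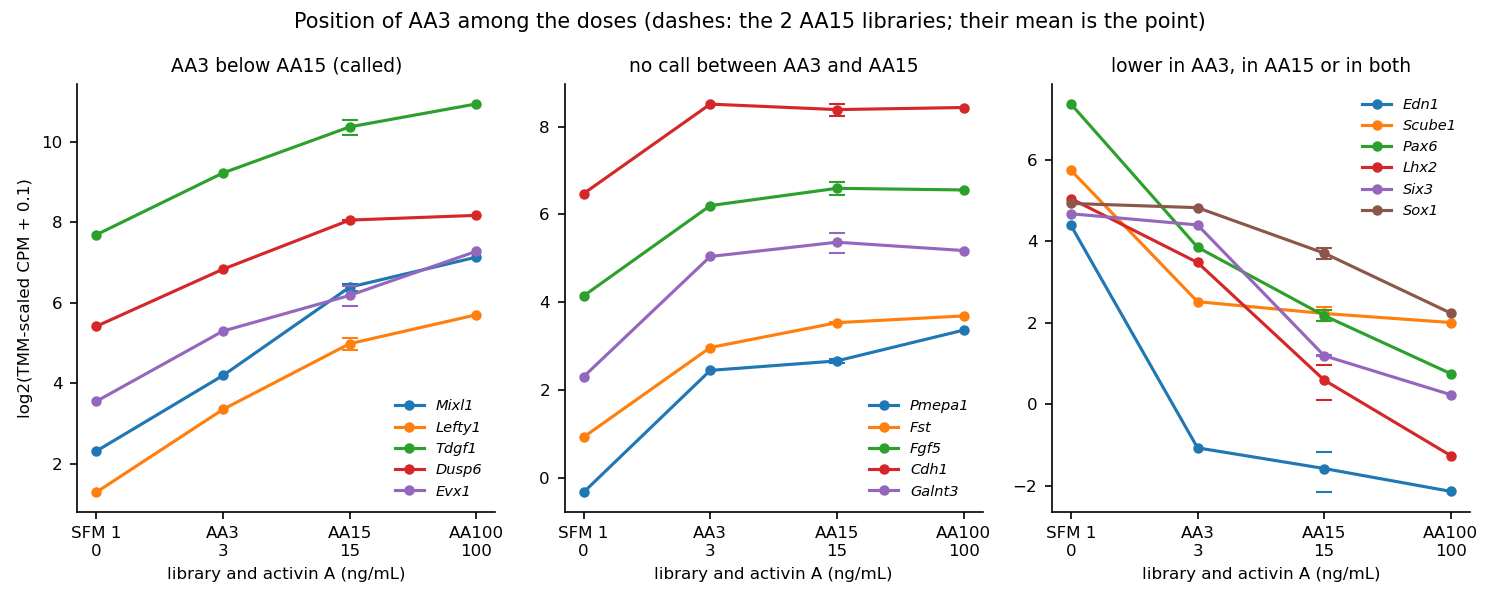
Lines join the levels of 16 genes, as log2(CPM + 0.1), in SFM replicate 1, AA3, AA15 and AA100, with dashes for the 2 AA15 technical replicates and doses spaced evenly. Genes on the left are lower in AA3 than in AA15, those in the middle gave no call between these doses, and on the right Edn1 and Scube1 are low from AA3 on while Six3 and Sox1 are low from AA15 on.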

How the data were processed

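Gene expression was measured by DP-seq in the 7 libraries of the dose set; the other 26 libraries were not used here. The authors deposited unique read counts per RefSeq transcript, per the file headers. The sources used here do not give the aligner, counting rule, strand use, RefSeq release or build, so overlapping or near-identical genes may be miscounted. Gene symbols came from a RefSeq table for 25857 of the 26566 transcripts and from GENCODE for 150, and counts were summed to 21844 genes. Library totals were 13053122 to 15707808 counts. Genes were kept with filterByExpr (minimum count 10, minimum total 15) and tested with edgeR 4.0.16 in R 4.3.3: TMM scaling, robust quasi-likelihood fit of 6 libraries without SFM replicate 2, Benjamini-Hochberg adjustment over all genes at 0.05. The lone AA3 and SFM libraries are assumed to vary like the AA15 technical pair. CPM use TMM factors of the 7 libraries. Values after ± are approximate standard errors, worked back as the absolute log2 change divided by the square root of the test's F statistic. They hold no information beyond the change and its p-value. In the fold rule and in single-library ratios, counts under 3 were set at 3.

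Alternatives were other scalings, DESeq2 1.42.0, other filters, the other control and the highest transcript per gene. Named genes are Nodal, Pmepa1, Pou5f1 and Pax6, all members of the 3 Nodal lists, up to 6 of each other list with the largest change, and the 15 largest rises and falls with at least 50 counts and 1 direction against both controls, without models, pseudogenes and ribosomal protein genes; a selection is printed. The list members Cdh2, En1, Eomes, Fezf2, Foxa2, Foxd4, Frzb, Hes5, Gbx2, Lhx1, Lhx2, Lhx5, Otx2, Pax2, Pax3, Pou3f3, Ptn, Shisa2, Six3, Sox1, Sox2 and Zic5 fall outside that rule and were chosen after their values were seen. Members and lists were chosen with earlier results of these data known. Python 3.11.15, pandas 2.3.3 and matplotlib 3.10.9 made tables and figures.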

Additional observations from a re-analysis of the deposited data

How the results depend on the processing

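No paired analysis was possible because AA3 has 1 library and the labels pair it with neither control. Counts of rises and falls in AA3 over SFM replicate 1 (337 and 300) stayed within 1.5 times with RLE size factors (346 and 320), no low-count filter (332 and 290) and the highest transcript per gene (348 and 312). DESeq2 gave 92 and 51, and for AA3 against AA15 26 higher and 64 lower (124 and 240 in edgeR). Against SFM replicate 2 alone (without SFM replicate 1), 3787 genes rose and 3134 fell. With both SFM libraries edgeR called 0 in either direction, and 0 again without either AA15 replicate (73 and 70 genes at unadjusted p under 0.05), and likewise 0 for AA3 against AA15 (31 genes at unadjusted p under 0.05 with all libraries and 3 without either AA15 replicate); DESeq2 was not run on these libraries. The smallest adjusted p against SFM was 0.985 with all libraries and 0.0969 without AA15 replicate 2. The 2-fold rule against both controls (216 above, 179 below) gave 20 and 35 at 4-fold, 584 and 448 at 1.5-fold, 382 and 373 with a minimum of 10 counts, and 116 below with a minimum of 100 counts. With only counts of 0 set at 3, an alternative chosen after seeing the data, it gave 216 and 180.

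Against SFM replicate 2 alone, the log2 change turned for Lefty2 (−0.70), Pim2 (−0.22), Grhl2 (−0.020), Cdh1 (−0.22), Rspo3 (−0.95) and Ttr (−1.12), which were higher against SFM replicate 1, and for Cxcr4 (1.07), Crabp2 (3.04), Fezf2 (1.32), Hes5 (0.88), Pax2 (1.14), Zfp42 (0.21) and Tfrc (0.27), which were lower. It also turned for Six3 (0.60), Sox1 (0.49), Sox2 (0.10), Smad2 (0.19), Zeb1 (0.30) and Otx2 (3.45), which were not called against SFM replicate 1. The calls of Inhba, Wnt3, Trh, Aldh1a2, En1, Rax, Hes3, Nanog, Etv4, Bmp2 and Wnt1 were lost there, and Foxa2 (3.41), Sox17 (3.65), Cfc1 (5.54), Pmaip1 (1.39), Perp (1.54), Lhx5 (−2.64), Pou3f3 (−4.13), Gbx2 (−2.66), Acvr2a (−0.93) and Cdh2 (−1.52) gained one. With both SFM libraries the change was −0.0080 for Lefty2, 0.10 for Six3, 0.16 for Sox1, 0.69 for Otx2, −0.078 for Rspo3 and −0.43 for Ttr. Leaving out either AA15 replicate as well gave −0.031 to −0.011 for Lefty2, 0.075 to 0.096 for Six3, 0.14 to 0.16 for Sox1, 0.67 to 0.69 for Otx2, −0.100 to −0.080 for Rspo3 and −0.45 to −0.43 for Ttr. The cause of these differences between controls was not tested. DESeq2 lost the calls of Nodal, Inhba, Foxh1, Lefty2, Smad7, Fst, Gsc, Lhx1, Wnt8a, Trh, Aldh1a2, Crabp1, Crabp2, Hes5, Lhx2, En1, Pax3, Pax2, Rax, Hes3, Foxd4, Zic5, Neurog2, Dll1, Nanog, Zfp42, Grhl2, Etv4, Spry4, Epcam, Wnt5b, Shisa2, Frzb, Bmp2, Ttr, Slitrk3, Ndnf, Wnt1 and Tfrc, all in the same direction. Frzb and Ttr also lost theirs with no low-count filter.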

Other observations

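Several genes, chosen after their values were seen, were lower in AA3 than in SFM replicate 1 and also lower than in AA15, so that AA3 was not between its neighbours in dose. Msi1, an RNA-binding protein gene of neural progenitors, had 156 CPM in SFM replicate 1 and 0.675 in SFM replicate 2, then 27.3 in AA3, 82.5 in AA15 (mean of 2 technical replicates) and 19.2 in AA100. In edgeR it was lower in AA3 by −2.53 ± 0.30 against SFM replicate 1 (adjusted p = 5.15e-11) and by −1.61 ± 0.27 against AA15 (adjusted p = 1.12e-05). Rps28, a ribosomal protein gene whose near-identical copies can split reads, had 799.8 CPM in SFM replicate 1 and 6.46 in SFM replicate 2, then 277 in AA3, 669.7 in AA15 and 456 at the highest dose. Casp2, a caspase gene, had 395 CPM in SFM replicate 1 and 60.9 in SFM replicate 2, then 156 in AA3, 492 in AA15 and 438 at the highest dose. SFM replicate 2 was below AA3 for each of these genes. Both differences share the AA3 library.

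Pyy and Shisa3, also chosen after their values were seen, rose in AA3 and had 0 counts in SFM replicate 1. Pyy, which encodes peptide YY, had 17 counts in AA3, 0 in SFM replicate 1 and 1 in SFM replicate 2, at least 6.05-fold higher in AA3 than a floor of 3 counts in SFM replicate 1. Shisa3, an antagonist gene of Wnt and Fgf receptors, had 11 counts in AA3, 0 in SFM replicate 1 and 16 in SFM replicate 2.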
